A study of Mus musculus with 10 samples.

Results

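Transcripts of 10 integrin chains of leukocytes were followed in splenic myeloid-derived suppressor cells (MDSC) and in tumor-associated macrophages (TAM) of Shp2f/f and Shp2f/fLysMcre mice. The chains were chosen by gene symbol, with earlier results of these data known, and are 10 of the 55421 genes of the count table. They comprise the α chains Itgam (αM, CD11b), Itgax (αX, CD11c), Itgal (αL, CD11a), Itga4 (α4) and Itgav (αV), and the β chains Itgb2 (β2, CD18), Itgb1 (β1), Itgb3 (β3), Itgb5 (β5) and Itgb7 (β7). All 10 passed the filter on low counts in every comparison.

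The adult mice of all 4 groups bore subcutaneous MC17-51 fibrosarcomas, a transplanted tumor line, and cells were taken at day 15. Every mouse carried floxed alleles of Ptpn11, the gene of SHP-2. Shp2f/f mice served as controls, and Shp2f/fLysMcre mice also carried Cre recombinase under the lysozyme M (Lyz2) locus, which is active in myeloid cells. MDSC (2 libraries per genotype) were GR1hi Ly6G+ Ly6C- cells drawn from spleen with magnetic beads, and TAM (3 libraries per genotype) were live CD45+ CD11b+ F4/80+ Ly6G- cells sorted from tumors of the same mice. CD11b, the product of Itgam, was therefore one of the gates that defined TAM. The labels do not tie an MDSC library to a TAM library, and whether a library pooled mice is not given in the sources used here. The p-values therefore measure the spread between libraries. Where a library mixed mice, the spread between mice was not measured. Cell type, organ and isolation method cannot be told apart. In bulk RNA, fewer cells of a type and less RNA per cell cannot be told apart either.

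Integrins are surface receptors built of 1 α and 1 β chain, and the chains a cell makes set which receptors can form. The β2 chain pairs with αM, αX or αL, among others, and gives the receptors with which neutrophils and macrophages bind ICAM-1, fibrinogen and complement-coated particles. The α4 chain pairs with β1 or β7 to bind VCAM-1, fibronectin and MAdCAM-1, and αV pairs with β1, β3 or β5, among others, to bind vitronectin, osteopontin and latent TGF-β. Inside the cell, talin and kindlin switch integrins to the binding state, and kinases of the Src family and SYK carry the signal of a bound integrin.

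The libraries held 28844660 to 38222998 counts, so that even the least abundant chain, Itgb3, had at least 266 counts in each. Levels are given as CPM, the counts of a gene scaled to the size of its library, after TMM scaling (trimmed means of log ratios between libraries) of all 10 libraries together. Ptpn11 read 99.2 and 113 CPM in Shp2f/f MDSC and 79.7 and 94.8 CPM in Shp2f/fLysMcre MDSC, a log2 fold change of -0.29 that was not called (SE 0.14, adjusted p = 0.361, edgeR), so the MDSC libraries did not show the deletion at the transcript level. In TAM it ranged from 120.9 to 125.2 CPM in Shp2f/f and from 50.9 to 54.2 CPM in Shp2f/fLysMcre libraries (log2 fold change -1.24, SE 0.04, adjusted p = 2.96e-09, edgeR). Lyz2, the locus that carries Cre, averaged 9214 CPM in Shp2f/f MDSC against 45.2 CPM in Shp2f/fLysMcre MDSC, and 3521 against 11.2 CPM in TAM. Cre, the low Lyz2 and the targeting of Ptpn11 came together in Shp2f/fLysMcre mice, so their parts cannot be told apart. Xist, made from the inactive X chromosome, averaged 0.029 against 126 CPM in MDSC and 10.04 against 296 CPM in TAM. Ddx3y, of the Y chromosome, averaged 52.7 against 25.1 CPM in MDSC and 83.7 against 40.8 CPM in TAM. The sex make-up of the libraries thus shifted with genotype and cannot be told apart from it. In every Shp2f/fLysMcre library Xist read at least 119 CPM and Ddx3y at least 22.3 CPM. These libraries therefore held RNA of both sexes. For the MDSC libraries among them, drawn from spleen, this means RNA of different mice. The spread between single mice was therefore not measured in Shp2f/fLysMcre MDSC. None of the 10 integrin genes lies on a sex chromosome, and the part of sex in their values was not tested. Among cell type markers, the 7 neutrophil genes summed to 8266 and 8333 CPM in Shp2f/f MDSC against 289.8 to 304.4 CPM in Shp2f/f TAM, and the 7 macrophage genes to 2281 and 2356 against 8036 to 8397 CPM. Ly6g, the gene of the marker Ly6G, averaged 10.4 CPM in Shp2f/f MDSC, where the macrophage gene Csf1r averaged 1431 CPM. Replicate 2 of Shp2f/fLysMcre MDSC stood apart among the MDSC libraries: its 6 fibroblast markers summed to 506 CPM, against 6.68 to 24.5 CPM in the other 3. In TAM the same markers summed to 229.3 to 235.7 CPM in Shp2f/f and to 216.5 to 233.0 CPM in Shp2f/fLysMcre libraries. The part of fibroblast or tumor cell transcripts in the integrin values of TAM was not tested.

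The α chains of the β2 integrins lie close together on chromosome 7 of the mouse genome (GRCm38), with Itgal at chr7:127296260-127335138, Itgam at chr7:128062640-128118491 and Itgax at chr7:128129547-128150657, all on the plus strand. Itga4 (chr2:79255426-79333123) and Itgav (chr2:83724397-83806916) share chromosome 2, and the β chain genes lie on 5 further chromosomes, with Itgb2 on 10, Itgb1 on 8, Itgb3 on 11, Itgb5 on 16 and Itgb7 on 15. The gene Gm49368 overlaps Itgam on the same strand with 16 to 154 counts per library, against at least 12001 counts for Itgam. Cerkl overlaps Itga4 on the opposite strand with 22 to 68 counts, against at least 1672 counts for Itga4.

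RefSeq promoters were found for 7 of the 10 genes, and not for Itgal, Itgb2 and Itgb3. The 4 printed here belong to chains that moved in TAM, Itgam and Itgb5 upward and Itgav and Itga4 downward. Each run is the 250 bases before the RefSeq start, on the gene's strand, 5′ to 3′, in build GRCm38.p6. Capitals mark matches, on either strand, to GAGGAA (a core bound by the ETS factor PU.1), GGGCGG (GC box), TATAAA (the box at many core promoters), TGTGGT (RUNX) and TGANTCA (AP-1).
Itgam, chr7:128062390-128062639, plus strand: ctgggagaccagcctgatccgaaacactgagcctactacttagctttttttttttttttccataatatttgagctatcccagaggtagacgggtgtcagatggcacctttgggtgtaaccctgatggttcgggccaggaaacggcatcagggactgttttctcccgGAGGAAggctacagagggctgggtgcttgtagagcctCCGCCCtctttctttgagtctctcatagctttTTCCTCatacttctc
Itgb5, chr16:33829415-33829664, plus strand: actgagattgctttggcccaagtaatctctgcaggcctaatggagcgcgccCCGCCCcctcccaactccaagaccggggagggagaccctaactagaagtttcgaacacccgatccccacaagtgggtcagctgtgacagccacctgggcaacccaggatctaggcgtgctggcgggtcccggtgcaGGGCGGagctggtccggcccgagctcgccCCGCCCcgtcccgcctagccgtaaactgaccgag
Itgav, chr2:83724147-83724396, plus strand: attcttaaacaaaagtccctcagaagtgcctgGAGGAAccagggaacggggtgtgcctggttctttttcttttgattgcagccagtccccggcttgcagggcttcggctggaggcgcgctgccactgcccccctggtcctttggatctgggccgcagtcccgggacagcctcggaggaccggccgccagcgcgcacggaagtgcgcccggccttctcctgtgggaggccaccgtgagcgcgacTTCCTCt
Itga4, chr2:79255176-79255425, plus strand: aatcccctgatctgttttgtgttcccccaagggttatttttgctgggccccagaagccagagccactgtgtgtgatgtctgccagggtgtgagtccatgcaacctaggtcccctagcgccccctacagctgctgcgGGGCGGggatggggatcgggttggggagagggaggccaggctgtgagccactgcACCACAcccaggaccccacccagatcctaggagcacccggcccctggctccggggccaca

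The Itgam window held GAGGAA at 84 to 79 bases before the start and again, on the reverse strand, at 15 to 10 bases. The Itgav window, of a gene that moved the other way in TAM, also held 2 matches, at 218 to 213 and at 7 to 2 bases before the start. Of 32851 mouse promoter windows, 23.3% held GAGGAA, and 3 of the 7 integrin windows did. GGGCGG was found in 4 of the 7 and in 32.7% of all windows, and TATAAA in 0 of the 7 and in 12.4% of all windows. TGTGGT occurred in 1 of the 7, that of Itga4, and in 14.0% of all windows. TGANTCA occurred in 1 of the 7, that of Itgax, and in 6.75% of all windows. The 7 windows differed in base composition, from 49.6% G and C in Itgam to 68.0% in Itgb1, with a median of 52.4% over all mouse windows. These matches describe the letters only and show no binding.

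Spleen MDSC and TAM were first compared within Shp2f/f mice, to describe which chains each cell type made in the control genotype. MDSC libraries were richer in αL, α4 and β7, and TAM libraries were richer in αV and β3. Itgam, the transcript of the marker on which TAM were gated, was at a similar level in both. Of the 10 chains, 5 were higher and 4 lower in TAM, in a comparison in which 78.8% of all tested genes were called (40.0% higher, 38.8% lower), meaning an adjusted p under 0.05 in edgeR. The groups did not overlap for any of the 10 chains, against 86.0% of all tested genes.

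Itgal gave the widest gap. It read 917 and 835 CPM in the Shp2f/f MDSC libraries and 43.7, 44.6 and 42.7 CPM in the TAM libraries. The groups lay far apart, with a log2 fold change of -4.33 (SE 0.06, adjusted p = 1.61e-11, edgeR), so that the TAM level was 0.0498 times the MDSC level. Itgb2, which codes for its partner chain, read 1176 and 1175 CPM in MDSC and 599, 616 and 591 CPM in TAM, a smaller fall of 0.97 on the log2 scale (SE 0.04, adjusted p = 2.58e-08, edgeR). Itgam read 387 and 395 CPM in MDSC and 355, 355 and 386 CPM in TAM. The ranges did not overlap, yet the difference of -0.10 on the log2 scale (95% interval -0.22 to 0.02) was not called (adjusted p = 0.118, edgeR). Itgax, the chain of CD11c, read 68.7 and 71.9 CPM in MDSC and 79.7, 78.6 and 80.7 CPM in TAM, a rise of 0.18 (SE 0.05, adjusted p = 0.00563, edgeR).

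The chains of the α4 receptors were both MDSC-rich. Itga4 read 613 and 504 CPM in MDSC and 97.0, 96.5 and 94.5 CPM in TAM, and Itgb7 read 462 and 487 CPM against 81.2, 82.0 and 82.4 CPM. Their log2 fold changes were nearly equal, -2.54 (SE 0.08) for Itga4 and -2.54 (SE 0.05) for Itgb7, with adjusted p of 1.81e-09 and 6.59e-11 in edgeR. Itgb1, the common partner of α4 and of many other α chains, went the other way, with 432 and 438 CPM in MDSC and 679, 723 and 682 CPM in TAM (log2 fold change 0.67, SE 0.05, adjusted p = 8.23e-07, edgeR).

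The αV chains were TAM-rich, though unequally. Itgav read 67.2 and 61.0 CPM in MDSC and 293, 297 and 292 CPM in TAM, a rise of 2.19 on the log2 scale (SE 0.06, adjusted p = 6.57e-10, edgeR). Itgb3 read 8.02 and 7.68 CPM in MDSC and 39.9, 39.2 and 36.8 CPM in TAM, a rise of 2.30 (SE 0.07, adjusted p = 1.90e-09, edgeR). Itgb5 read 195 and 219 CPM in MDSC and 229, 235 and 221 CPM in TAM. That gap was at the edge of the call, with a log2 fold change of 0.14 and an adjusted p of 0.0498 in edgeR, and 9 of 12 alternative settings did not call it.

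**Figure D1:**
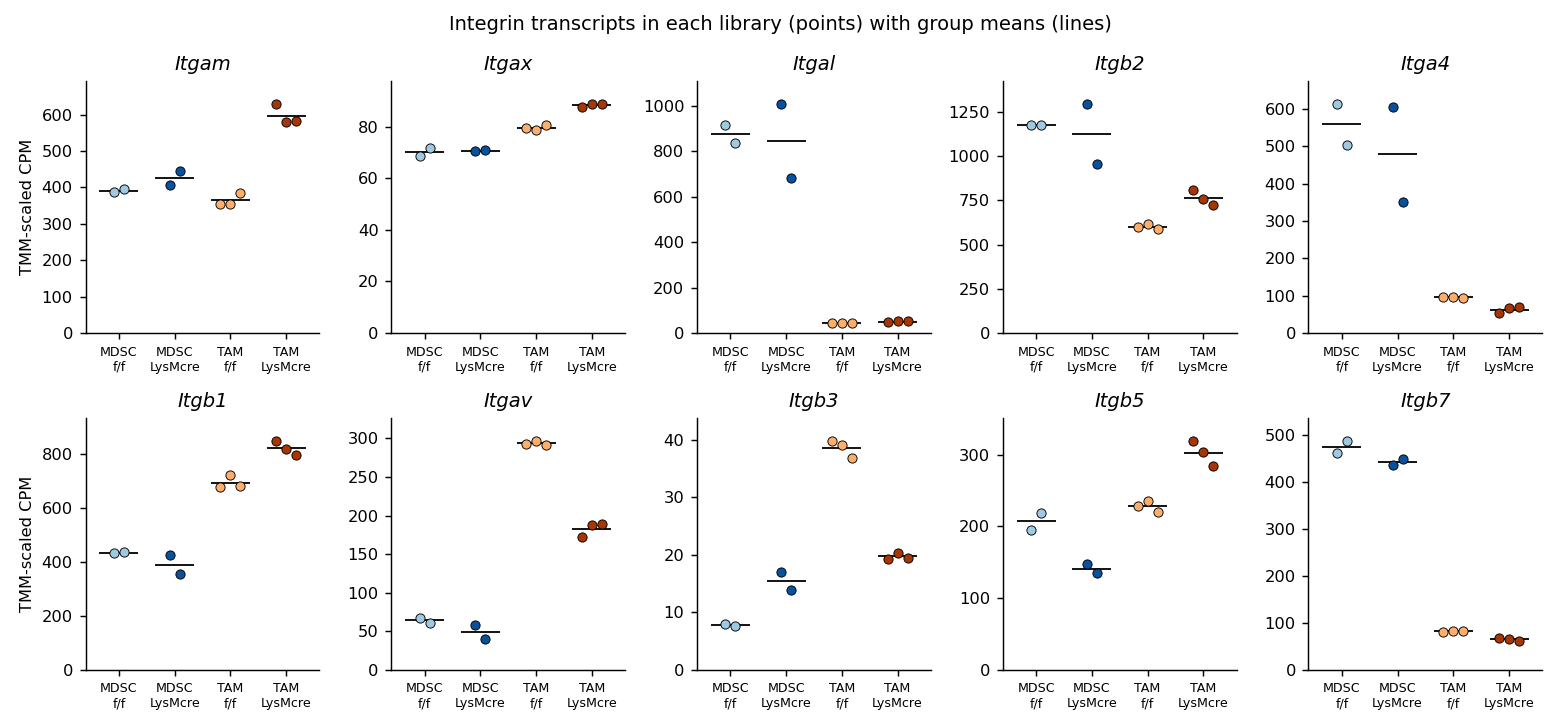
TMM-scaled CPM (vertical axes, each from 0) of the 10 integrin genes in each of the 10 libraries (points), with the mean of each group (lines). Itgal, Itga4 and Itgb7 sit far higher in MDSC, Itgav in TAM, and Itgb3 rises with the Cre genotype in MDSC and falls with it in TAM.

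The Shp2f/fLysMcre libraries gave the same comparison in samples not used above. All 10 chains were called, 6 higher and 4 lower in TAM, where 63.5% of all tested genes were called (29.8% higher, 33.7% lower). The groups did not overlap for any of the 10, against 77.7% of all tested genes. Itgal (-4.05, SE 0.18), Itga4 (-2.92, SE 0.25), Itgb7 (-2.76, SE 0.08) and Itgb2 (-0.55, SE 0.14) were lower in TAM, on the log2 scale. Itgb2 was called in 9 of 12 alternative settings, at values from -0.78 to -0.30 over all 12. Itgav was 1.89 higher (SE 0.17) and Itgb1 1.08 higher (SE 0.10). Itgb5 was 1.11 higher in TAM (SE 0.09, adjusted p = 0.000153, edgeR), and Itgam 0.49 higher (SE 0.08, adjusted p = 0.00319, edgeR), called in 12 and 11 of the 12 settings. Itgax was 0.33 higher (SE 0.06, adjusted p = 0.00571, edgeR), called in 10 of them. Itgb3 was 0.36 higher (SE 0.12, adjusted p = 0.0355, edgeR), which 6 of 12 alternative settings did not call. Without replicate 2 of Shp2f/fLysMcre MDSC its difference was 0.20 and was no longer called (adjusted p = 0.0561, edgeR).

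**Figure D2:**
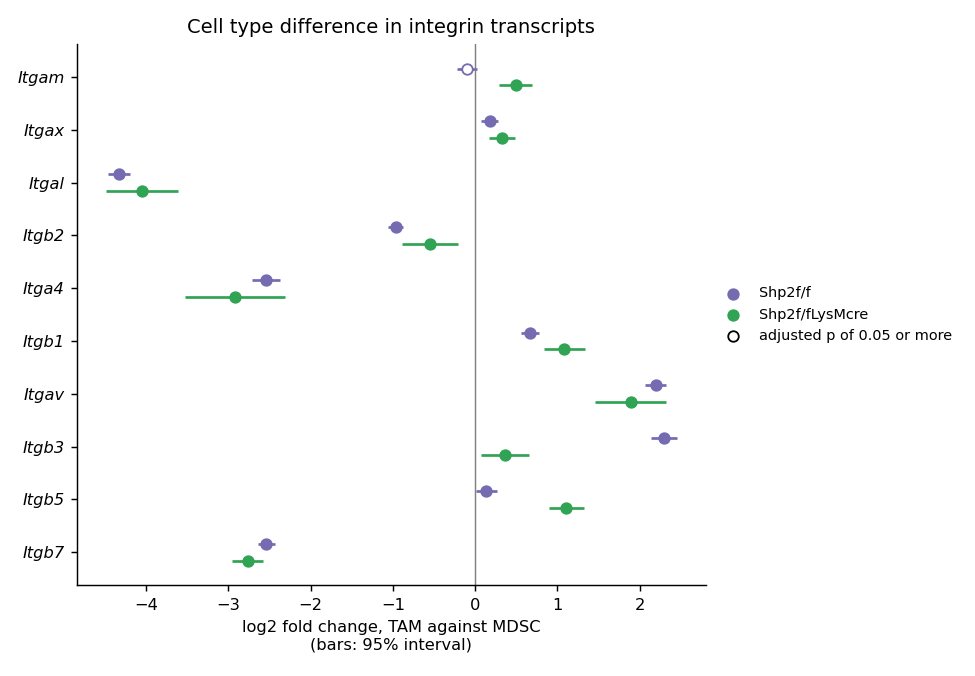
Log2 fold change of TAM against MDSC (horizontal axis) for each integrin gene, in Shp2f/f and in Shp2f/fLysMcre libraries, with 95% intervals as bars and open points where the adjusted p was 0.05 or more. Itgal, Itga4 and Itgb7 lie below -2 in both genotypes, while Itgb3 lies at 2.30 in Shp2f/f and at 0.36 in Shp2f/fLysMcre.

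Levels were also divided by exon length (RPKM, CPM per kilobase of the union of exons), so that chains could be set against each other. The 10 chains summed to 995 and 994 RPKM in the Shp2f/f MDSC libraries and to 591, 610 and 593 RPKM in Shp2f/f TAM. Itgb2 was the most abundant chain in all 4 groups, at 385 ± 0.179 RPKM (SD, n = 2) in Shp2f/f MDSC and 197 ± 4.30 RPKM (SD, n = 3) in Shp2f/f TAM. In MDSC it was followed by Itgb7 at 171 RPKM, Itgal at 133 RPKM, Itgb1 at 107 RPKM and Itgam at 77.8 RPKM. In TAM it was followed by Itgb1 at 170 RPKM, Itgam at 72.7 RPKM and Itgb5 at 64.2 RPKM. Itgb3 was last in every group, although its range overlapped that of Itgal in Shp2f/f TAM, where Itga4, Itgal and Itgb3 averaged 6.87, 6.65 and 6.54 RPKM and neighbors in that order overlapped. In Shp2f/fLysMcre MDSC, Itgal overlapped Itgb1, Itgb1 overlapped Itgam, and Itgb5 overlapped Itga4. Neighbors in the order did not overlap elsewhere.

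Within the α chains that compete for β2, the make-up was reversed between the cell types. Of the summed RPKM of Itgam, Itgax and Itgal, Itgal took 60.5% and 57.6% in the Shp2f/f MDSC libraries and 7.08%, 7.23% and 6.50% in Shp2f/f TAM. Itgam took 33.3% and 35.6% in Shp2f/f MDSC and 75.3%, 75.3% and 76.7% in Shp2f/f TAM. Itgax took 6.49% on average in Shp2f/f MDSC and 17.3% in Shp2f/f TAM. In Shp2f/fLysMcre TAM the share of Itgam was 83.0%, 81.4% and 81.4%, above all 3 Shp2f/f TAM libraries, and that of Itgax was 12.1%, 13.1% and 13.0%, below all 3. The sum of the 3 α chains relative to Itgb2 was 0.479, 0.465 and 0.517 in Shp2f/f TAM and 0.571, 0.569 and 0.599 in Shp2f/fLysMcre TAM. Such shares describe transcripts, and protein pairing was not measured.

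**Figure D3:**
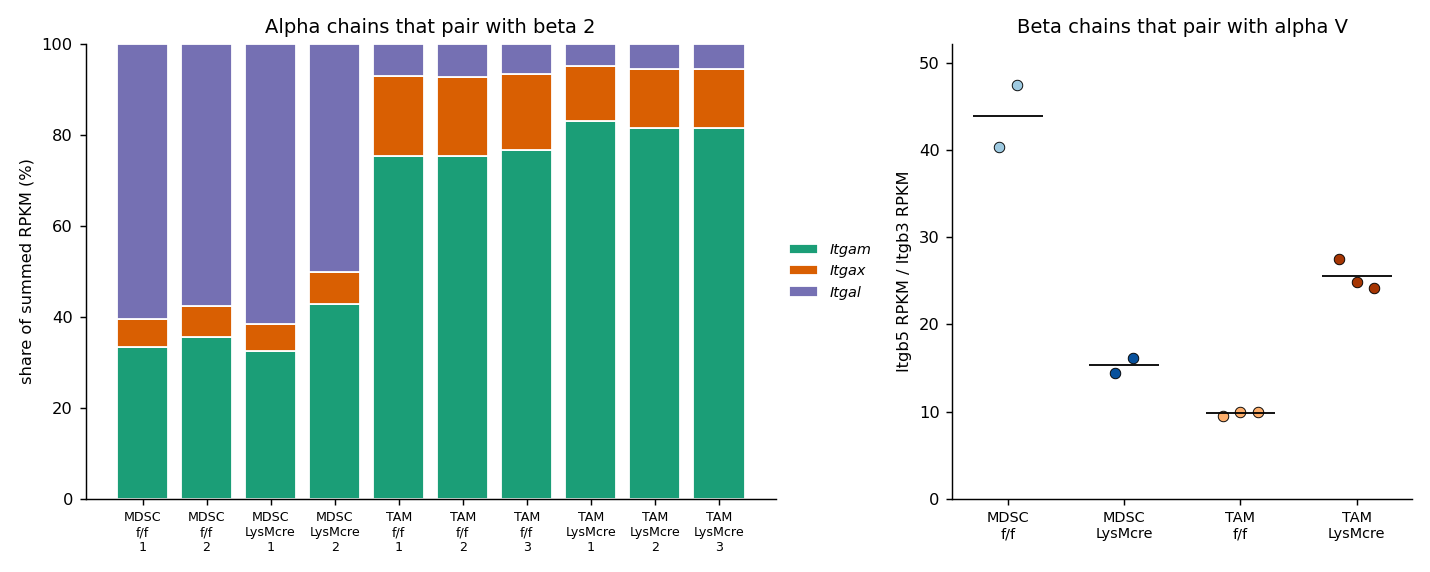
Left, share (%) of Itgam, Itgax and Itgal in their summed RPKM in each library. Right, the ratio of Itgb5 to Itgb3 RPKM in each library (points) with group means (lines). Itgal makes up 50.1% to 61.6% of the bar in MDSC and 4.90% to 7.23% in TAM, and the ratio falls with the Cre genotype in MDSC and rises with it in TAM.

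The genotypes were then compared within TAM, to describe how integrin transcripts differed between macrophages of Shp2f/fLysMcre and Shp2f/f mice. All 10 chains were called, 6 higher and 4 lower in Shp2f/fLysMcre TAM. The background was high, since 50.2% of all tested genes were called, 23.9% higher and 26.3% lower. The groups did not overlap for any of the 10, against 57.9% of all tested genes. Chains of the β2 family rose together with Itgb1 and Itgb5, whereas Itga4, Itgb7, Itgav and Itgb3 fell. The median log2 fold change was 0.15 over the 10 chains and -0.01 over all tested genes. The macrophage markers moved with genotype as well, from 8036 to 8397 CPM in Shp2f/f TAM to 11892 to 12584 CPM in Shp2f/fLysMcre TAM. The summed neutrophil markers went from 289.8 to 304.4 CPM to 472.8 to 500.6 CPM, with all 14 markers above 0. Of the 14, only Ly6g averaged lower in Shp2f/fLysMcre TAM, at 0.121 CPM against 0.192 CPM in Shp2f/f TAM. The part of these markers in the integrin values was not tested.

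Itgam showed the largest rise. It read 355, 355 and 386 CPM in Shp2f/f TAM and 630, 580 and 582 CPM in Shp2f/fLysMcre TAM. Every Cre library exceeded every control library, with a log2 fold change of 0.67 (SE 0.05, adjusted p = 9.65e-07, edgeR). Itgb2, its partner, read 599, 616 and 591 CPM against 806, 760 and 726 CPM and rose by 0.31 (SE 0.04, adjusted p = 0.000101, edgeR). Itgal, low in TAM, read 43.7, 44.6 and 42.7 CPM against 48.5, 51.5 and 52.0 CPM, a rise of 0.18 (SE 0.04, adjusted p = 0.00596, edgeR). Itgax read 79.7, 78.6 and 80.7 CPM against 87.5, 88.8 and 88.8 CPM, a rise of 0.11 (SE 0.04, adjusted p = 0.0197, edgeR). The small rises of Itgax and Itgal depended on scaling: with total counts they were 0.02 and 0.08 and neither was called (adjusted p = 0.727 and 0.168, edgeR). In one fit of all 10 samples Itgal was 0.21 and was not called either (adjusted p = 0.234, edgeR), and with no filter Itgax was 0.10 (adjusted p = 0.151, edgeR). Leaving out Shp2f/f replicate 1, Shp2f/f replicate 2 or Shp2f/fLysMcre replicate 2 also ended the call of Itgax, at values of 0.11, 0.10 and 0.12.

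Itga4 fell from 97.0, 96.5 and 94.5 CPM to 54.1, 65.7 and 68.4 CPM, a change of -0.65 (SE 0.07, adjusted p = 1.94e-05, edgeR). The control libraries were within a few CPM of each other and the Cre libraries were more spread. Itgb7 fell from 81.2, 82.0 and 82.4 CPM to 68.2, 65.4 and 60.4 CPM (-0.37, SE 0.05, adjusted p = 4.23e-05, edgeR). Itgb1, which can also pair with α4, rose from 679, 723 and 682 CPM to 851, 821 and 796 CPM (0.21, SE 0.04, adjusted p = 0.000875, edgeR). The α chain of the α4 receptors thus fell while one of its partners rose and the other fell. The sum of the T cell markers was lower as well, going from 10.6 to 11.8 CPM to 4.30 to 5.97 CPM over 6 genes, and that of the NK cell markers from 2.29 to 2.61 CPM to 0.420 to 0.956 CPM over 4 genes, none of them at 0 in every library of a group. Their part in the falls of Itga4 and Itgb7 was not tested.

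Itgav, the TAM-rich α chain, read 293, 297 and 292 CPM in Shp2f/f TAM and 172, 187 and 189 CPM in Shp2f/fLysMcre TAM. It fell by 0.72 on the log2 scale (SE 0.04, adjusted p = 2.56e-07, edgeR). Itgb3 read 39.9, 39.2 and 36.8 CPM against 19.3, 20.3 and 19.5 CPM, so that the Cre level was 0.498 times the control level. Its log2 fold change of -1.01 (SE 0.05, adjusted p = 6.07e-08, edgeR) was the largest change of the 10. Itgb5, the alternative partner of αV, rose from 229, 235 and 221 CPM to 320, 304 and 284 CPM (0.37, SE 0.05, adjusted p = 5.63e-05, edgeR). The ratio of Itgb5 to Itgb3 RPKM went from 9.53, 9.98 and 9.96 in Shp2f/f TAM to 27.5, 24.9 and 24.2 in Shp2f/fLysMcre TAM.

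The platelet and megakaryocyte markers, among them the β3 partner Itga2b, were examined because platelets carry much β3. The 7 genes summed to 147 to 159 CPM in Shp2f/f TAM and to 322 to 339 CPM in Shp2f/fLysMcre TAM. Nearly all of that sum was Ppbp, at 153 and 329 CPM on average. Gp1bb was at 0 in TAM, and Gp9, Gp1ba and Gp6 had at most 1 count in any TAM library. The part of platelet transcripts in the fall of Itgb3 was not tested.

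In MDSC, 1 of the 10 chains was called between the genotypes, where 4.28% of all tested genes were called, 3.76% higher and 0.520% lower. That chain was Itgb3, which read 8.02 and 7.68 CPM in Shp2f/f MDSC and 17.0 and 13.8 CPM in Shp2f/fLysMcre MDSC. Both Cre libraries lay above both controls, a rise of 0.97 on the log2 scale (SE 0.16, adjusted p = 0.0381, edgeR). The groups did not overlap for 6 of the 10 chains, against 48.9% of all tested genes. The neutrophil markers moved with genotype too, with sums of 8266 and 8333 CPM against 18561 and 22058 CPM, all 7 markers being above 0. S100a8 and S100a9 made up most of that rise, with means of 3331 against 8245 CPM and 3212 against 9961 CPM. Ly6g (10.4 against 31.5 CPM), Cxcr2 (123 against 217 CPM) and Retnlg (199 against 261 CPM) also averaged higher, with no overlap. The ranges of Csf3r and Mmp8 overlapped between the genotypes. The macrophage markers summed to 2281 and 2356 CPM in Shp2f/f MDSC and to 1916 and 1668 CPM in Shp2f/fLysMcre MDSC. The part of either list in the integrin values was not tested. The platelet and megakaryocyte markers summed to 15.5 and 19.5 CPM in Shp2f/f MDSC and to 14.1 and 19.0 CPM in Shp2f/fLysMcre MDSC. Within that sum Treml1 went from 1.13 to 1.53 CPM to 2.57 to 3.03 CPM, in the direction of Itgb3, and Ppbp from 3.51 to 4.24 CPM to 1.76 to 2.33 CPM, and their part in the rise of Itgb3 was not tested. The rise was 1.12 without replicate 2 of Shp2f/fLysMcre MDSC, the library with fibroblast transcripts, and was still called. Without either control library the call was lost, at values of 0.99 without replicate 1 and 0.93 without replicate 2.

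Itgb5 gave the next smallest adjusted p. It read 195 and 219 CPM in Shp2f/f MDSC and 148 and 135 CPM in Shp2f/fLysMcre MDSC, a difference of -0.56 (95% interval -0.88 to -0.24, adjusted p = 0.0841, edgeR). It was below the threshold in 5 of 11 alternative settings, among them the DESeq2 Wald test at -0.57. The ratio of Itgb5 to Itgb3 RPKM was 40.4 and 47.4 in Shp2f/f MDSC and 14.4 and 16.2 in Shp2f/fLysMcre MDSC. Itgav read 67.2 and 61.0 CPM against 58.5 and 40.3 CPM, with a difference of -0.38 (95% interval -0.88 to 0.12, adjusted p = 0.386, edgeR).

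For the chains of the β2 and α4 receptors, the wide intervals in MDSC left both rises and falls possible. Itgam read 387 and 395 CPM against 407 and 446 CPM, a difference of 0.12 (95% interval -0.16 to 0.40). Itgax was nearly level, with 68.7 and 71.9 CPM against 70.5 and 70.9 CPM and a difference of 0.00 (95% interval -0.25 to 0.25). Itgb1 read 432 and 438 CPM against 425 and 356 CPM (-0.16, 95% interval -0.50 to 0.18), and Itgb7 462 and 487 against 437 and 447 CPM (-0.11, 95% interval -0.39 to 0.17). For Itgal, Itgb2 and Itga4 the Cre libraries disagreed, with replicate 1 at or above the mean of the controls and replicate 2 below both controls. Itgal read 1008 and 682 CPM in replicates 1 and 2 against 917 and 835 CPM in the controls. Itgb2 read 1295 and 954 CPM against 1176 and 1175 CPM, and Itga4 606 and 350 CPM against 613 and 504 CPM. Their differences were -0.06 (95% interval -0.59 to 0.47), -0.07 (-0.51 to 0.38) and -0.23 (-0.93 to 0.47), and without replicate 2 of Shp2f/fLysMcre MDSC they were 0.21, 0.14 and 0.12. Without replicate 1 of that group they were -0.40, -0.35 and -0.72, and Itga4 was then called lower (adjusted p = 0.0192, edgeR).

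**Figure D4:**
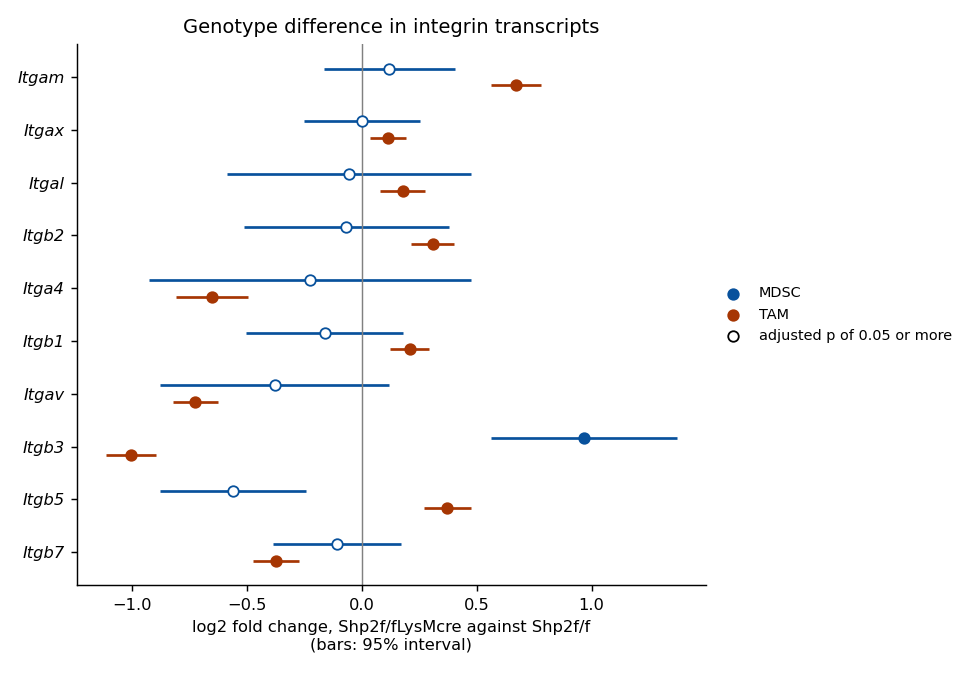
Log2 fold change of Shp2f/fLysMcre against Shp2f/f (horizontal axis) for each integrin gene in MDSC and in TAM, with 95% intervals as bars and open points where the adjusted p was 0.05 or more. In TAM all 10 points are filled, and Itgb3 lies at 0.97 in MDSC and at -1.01 in TAM.

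Whether the genotype difference itself differed between the cell types was tested as an interaction over all 10 libraries. It was called for 4 of the 10 chains, 3 of them with the more positive effect in TAM, where 24.9% of all tested genes were called. Itgb3 rose in MDSC and fell in TAM, while Itgb5 rose in TAM and was not called in MDSC. The genotype effect on Itgb3 was 1.94 lower in TAM than in MDSC on the log2 scale (interaction -1.94, SE 0.13, adjusted p = 1.38e-05, edgeR). For Itgb5 it was 0.96 higher (SE 0.11, adjusted p = 0.000217, edgeR). For Itgam it was 0.58 higher (SE 0.10, adjusted p = 0.00221, edgeR), with a rise in TAM against a small difference in MDSC. For Itgb1 it was 0.40 higher (SE 0.11, adjusted p = 0.0262, edgeR), although 8 of 17 alternative settings did not call it. For Itgb2, Itgb7, Itgav, Itga4, Itgal and Itgax the difference between the cell types was not called, with adjusted p from 0.0778 to 0.346 in edgeR. The interaction of Itgav was -0.31 (95% interval -0.72 to 0.09) and that of Itga4 -0.39 (-1.01 to 0.23), so the fall of these chains in TAM was not shown to be particular to TAM.

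Genes around the integrins were read from 4 lists of 85 genes, which cover the other integrin chains, regulators of integrin activation, adhesion complexes with signaling downstream, and ligands. In TAM, 11 of 20 tested activation genes were higher and 4 lower in Shp2f/fLysMcre libraries, against 23.9% and 26.3% of all tested genes. Cd81, a tetraspanin, rose from 59.3 to 81.8 CPM (log2 fold change 0.43, SE 0.04), and Rassf5, the RAP1 effector RAPL, from 55.0 to 71.3 CPM (0.34, SE 0.04). Rapgef1, an exchange factor for RAP1, fell from 214 to 164 CPM (-0.42, SE 0.04). Cd9, another tetraspanin, fell from 103 to 73.4 CPM in TAM (-0.53, SE 0.04) and rose from 21.5 to 47.4 CPM in MDSC (1.13, SE 0.16, adjusted p = 0.0248, edgeR). Its genotype effects in the cell types differed by -1.63 (SE 0.14, adjusted p = 4.12e-05, edgeR), and it was the 1 gene of the 4 lists called in MDSC by edgeR. The median log2 fold change of the activation list was 0.14 in TAM.

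In TAM, 12 of 24 adhesion complex and signaling genes were higher and 5 lower, where 23.9% and 26.3% of all tested genes were. Vav3, a guanine nucleotide exchange factor, rose from 77.0 to 119 CPM (0.59, SE 0.04), and Zyx, the focal adhesion protein zyxin, from 275 to 425 CPM (0.59, SE 0.04). Src, the kinase that carries αVβ3 signals, fell from 155 to 94.5 CPM (-0.75, SE 0.04), and Parvb, which codes for β-parvin, from 150.5 to 98.7 CPM (-0.64, SE 0.04). Src was close to absent in MDSC, at 0.492 CPM in Shp2f/f and 1.93 CPM in Shp2f/fLysMcre libraries, and rose by 8.29 on the log2 scale from MDSC to TAM in Shp2f/f mice (SE 0.09, adjusted p = 9.03e-12, edgeR). Fgr, another kinase of the Src family, fell from 852 to 197 CPM between the same groups (-2.12, SE 0.05). The list's median was 0.11 in the genotype comparison of TAM.

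Of 15 tested ligand genes, 7 were higher and 2 lower in Shp2f/fLysMcre TAM, beside 23.9% and 26.3% of all tested genes, with a median of 0.27. Vcam1, the counter-receptor of α4β1, rose from 116 to 259 CPM (1.12, SE 0.04), and Spp1, which codes for the αV ligand osteopontin, from 847 to 1504 CPM (0.79, SE 0.04). Mfge8, which bridges αV integrins to dying cells, fell from 12.9 to 11.1 CPM (-0.25, SE 0.06). Among the 10 chains, those of the receptors for Vcam1 and Spp1 went both ways in the same TAM libraries. Itga4, Itgb7, Itgav and Itgb3 fell, whereas Itgb1 and Itgb5 rose, by 0.21 and 0.37 on the log2 scale. In MDSC, 0 of 16 ligand genes were called between the genotypes in edgeR, with 10 at an unadjusted p under 0.05 and 9 called by the DESeq2 Wald test. Tnc, which codes for the matrix protein tenascin C, read 0.174 and 0.375 CPM in the Shp2f/f MDSC libraries. In Shp2f/fLysMcre MDSC its lower value was 0.108 CPM and its higher value 75.6 CPM, beside the fibroblast marker sums of 11.1 and 506 CPM, and the part of fibroblast transcripts in the ligand counts was not tested. For adhesion complex genes the count was 0 of 22 (3 at an unadjusted p under 0.05, 2 by DESeq2), and for other chains 0 of 12 (5 and 1).

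Of 13 tested chains outside the 10, 2 were higher and 3 lower in Shp2f/fLysMcre TAM, a smaller share than the 50.2% of all tested genes that were called. Itga9, a chain that pairs with β1, rose from 179 to 292 CPM (0.67, SE 0.04), and Itga1, a collagen-binding partner of β1, from 29.4 to 42.5 CPM (0.49, SE 0.05). Itga5, of the fibronectin receptor, fell from 334 to 305 CPM (-0.17, SE 0.04), and Itga3, of a laminin receptor, from 12.4 to 8.03 CPM (-0.67, SE 0.12). Itga9 also set the cell types apart, with 3.85 CPM in Shp2f/f MDSC against 179 CPM in TAM (5.53, SE 0.06), as did Itga6, with 11.8 against 112 CPM (3.25, SE 0.09). Rasgrp2, an exchange factor for RAP1 known from platelets and neutrophils, went from 191 CPM in Shp2f/f MDSC to 3.39 CPM in TAM (-5.81, SE 0.06). Between the cell types in Shp2f/f mice, 9 of 14 other chains were higher and 3 lower in TAM, against 7 and 11 of 20 activation genes and 7 and 15 of 24 adhesion complex genes. Over all tested genes these shares were 40.0% and 38.8%.

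**Figure D5:**
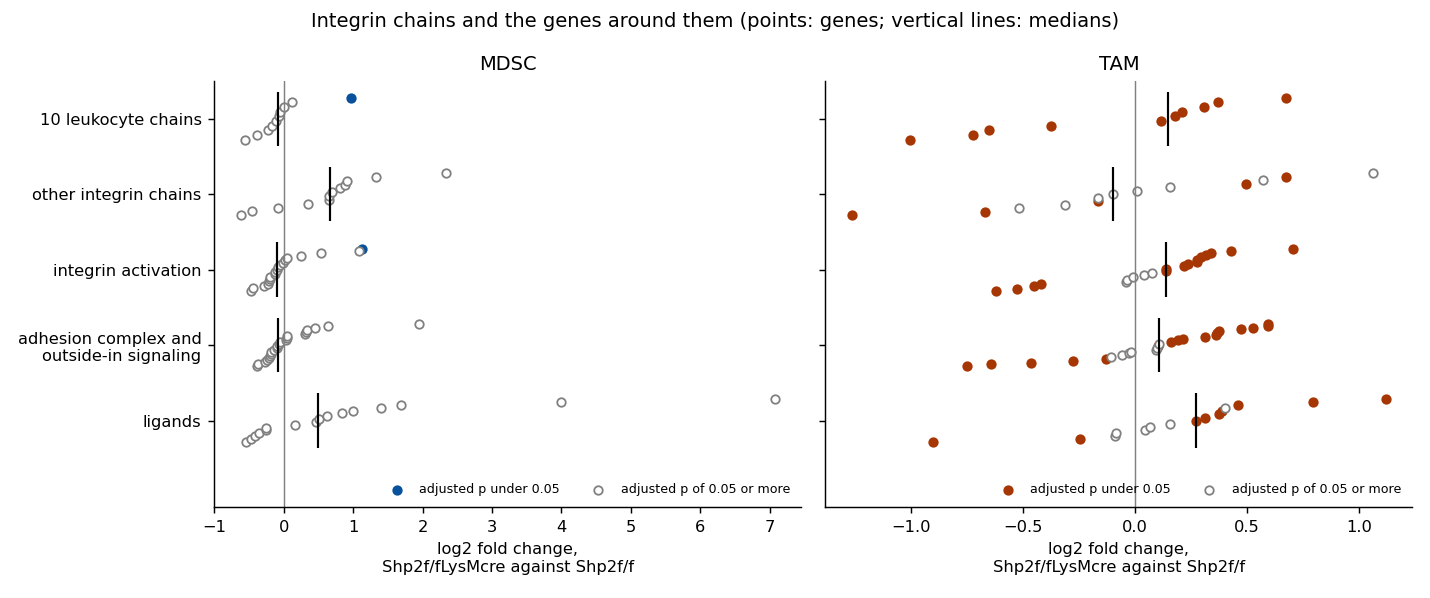
Log2 fold change of Shp2f/fLysMcre against Shp2f/f (horizontal axes) in MDSC and in TAM for the 10 leukocyte chains and the tested genes of the 4 lists. Each point is a gene, filled where the adjusted p was under 0.05, and vertical lines are medians, which in TAM lie at 0.15 for the 10 chains and at 0.14 for the activation genes.

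Each chain was last set against 8849 genes that averaged 10 CPM or more, by Pearson's r of log2 CPM over the 10 libraries. These libraries fall into 4 groups, so r mainly follows the group means and is given as a description. Itgb3 was most like Myo1d (r = 0.996), a myosin, and Itgb5 most like Icam1 (r = 0.994), the adhesion molecule bound by αL and αM. Itgav was nearest to Piezo1 (r = 0.998), a mechanically gated channel, and Itgam to Jun (r = 0.985), a subunit of AP-1. For Itgal the nearest gene was Stk10, for Itga4 Fut4, for Itgb7 Plac8, for Itgb2 Cpt1a, for Itgb1 Washc5 and for Itgax Tmem159, with r from 0.992 to 0.9996. Among the 10 chains, Itgal and Itgb7 were each other's nearest (r = 0.986), and Itgam was least like any other, with r = 0.685 for Itgax.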

How the data were processed

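RNA of 10 samples was sequenced by the authors as stranded poly(A) libraries with short paired-end reads. Per the labels and the study's methods, the authors checked reads with FastQC 0.11.5, trimmed them with Cutadapt 2.5, aligned them to GRCm38 with STAR 2.7.3a and counted them per Ensembl gene with featureCounts (Subread 1.6.2). They deposited raw counts, whole numbers of reads per gene with no normalization. The strand setting and the treatment of reads with several matches are not given in the sources used here, so counts of overlapping genes are uncertain. A second deposited table, of the same counts divided by DESeq2 size factors, was not used here.

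Groups and replicate numbers came from the sample titles. Symbols were matched to 99.52% of the gene identifiers, and exon lengths and gene positions were read from GENCODE for GRCm38. Counts were tested in R 4.3.3 with edgeR 4.0.16. Genes were kept by filterByExpr with a minimum count of 10, scaled by TMM within the libraries of a fit, and tested with the quasi-likelihood F test. P-values were adjusted over all tested genes by the Benjamini-Hochberg method, and genes were called at an adjusted p under 0.05. Genotype was fitted within each cell type, cell type within each genotype, and the interaction over all 10 libraries. Printed CPM were scaled over all 10 libraries, so that ratios of printed CPM can differ slightly from fitted changes. Fits were tested on simulated data, where the share of false calls exceeded the nominal level in every comparison except the interaction, so calls close to the threshold are less certain than their adjusted p.

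The members and lists were chosen with earlier results of these data known. The named genes were the 10 chains, Ptpn11 and Lyz2, from each list, in both genotype comparisons and in TAM against MDSC of Shp2f/f mice, up to 2 called genes per direction with the largest change among those averaging 10 CPM or more, and the gene nearest to each chain in pattern. Xist, Ddx3y, single cell type markers and Tnc in MDSC were named after their values were seen. Of the 85 listed genes, 1 had no matching identifier. The 12 marker lists covered neutrophils, macrophages, T cells, NK cells, B cells, dendritic cells, platelets, mast cells, eosinophils, fibroblasts, endothelial cells and erythroid cells. Alternatives were the DESeq2 1.42.0 Wald test, size factors of DESeq2, total counts, no filter, a filter at 1 CPM, the replicate number as a block, a joint fit of all 10 samples, limma 3.58.1 voom with weights per library for the interaction, leaving out each library, and the longest transcript as gene length.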

Additional observations from a re-analysis of the deposited data

Results flagged for a closer look

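The genotype effect differed between TAM and MDSC for 4 of the 10 integrin chains in the interaction test of edgeR, where 24.9% of all tested genes were called. Itgb3 had the widest difference, with a genotype effect 1.94 lower in TAM on the log2 scale (interaction -1.94). Its level in both Shp2f/fLysMcre MDSC libraries lay above both controls, and in all 3 Shp2f/fLysMcre TAM libraries below all 3 controls. Groups also did not overlap for 48.9% of all tested genes in MDSC and 57.9% in TAM. The interaction of Itgb3 was called under all 17 alternative settings, at values from -2.11 to -1.78. Itgb5 showed the opposite pattern, with an interaction of 0.96, and was also called under all 17, at 0.79 to 1.05. For Itgam the interaction was 0.58, called under all 17 at 0.41 to 0.65, with all 3 Shp2f/fLysMcre TAM libraries above all 3 controls. For Itgb1 it was 0.40, called under 9 of 17.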

How the results depend on the processing

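In TAM, all 10 genotype effects kept their direction under all 13 alternative settings and 8 chains their call, the exceptions being Itgax and Itgal. Among MDSC genotype effects, 8 of 110 alternative values changed sign, none of them of a called chain. Itgax was -0.013 with DESeq2 and -0.015 with no filter. On leaving out a library, Itgax ranged from -0.035 to 0.034, Itgal from -0.40 to 0.21, Itgb2 from -0.35 to 0.14 and Itga4 from -0.72 to 0.12, with the upper ends of the last 3 without Shp2f/fLysMcre replicate 2. The interaction of Itgax was -0.030 with total counts, and that of Itga4 ranged from -0.74 to 0.065, the latter without MDSC Shp2f/fLysMcre replicate 1. The cause of these changes was not tested.

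The 1 chain called in MDSC became 2 with DESeq2, 0 with no filter, 2 in one fit of all 10 samples and 0 to 4 on leaving out a library. The 633 genes called there became 1207 with DESeq2, 130 with no filter, 2666 in one fit and 1 to 4406 on leaving out a library, with 1 call without either control library. The 7257 genes called in TAM became 4837 in one fit. Leaving out a library gave 9 to 10 called chains and 6176 to 7317 genes in TAM, 3 to 6 chains and 2446 to 7023 genes (main count 4132) in the interaction, 8 to 9 chains and 11745 to 11915 genes between the cell types in Shp2f/f, and 8 to 10 chains and 7813 to 11587 genes in Shp2f/fLysMcre. Leaving out Shp2f/fLysMcre MDSC replicate 1 gave the upper ends in MDSC and in the interaction.

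Total counts moved the median of all genes in TAM from -0.01 to -0.11 and the split of calls from 3452 higher and 3805 lower to 2342 and 5227. For the interaction the median moved to -0.18 and the split from 2030 and 2102 to 1234 and 3132, and for the cell types in Shp2f/fLysMcre to -0.26 and from 4689 and 5301 to 3696 and 6561.

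After subtraction of group means, log2 values of same-numbered samples correlated at -0.08, 0.06 and 0.03 in TAM. The values were 0.17 in MDSC and -0.15 to 0.03 between cell types. With 2 libraries per group, deviations in MDSC mirror each other, so the value there cannot decide whether the numbers are pairs. The numbers were not taken as pairs. With a replicate block, 3 chains and 2674 genes were called in MDSC, with Itgb5 and Itgav added, 10 chains in TAM and 5 in the interaction. Between the cell types the block gave 10 chains in Shp2f/f, with Itgam added at -0.14, and 6 in Shp2f/fLysMcre, without Itgam, Itgax, Itgb2 and Itgb3.

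With the longest transcript as gene length, the share of Itgam was 31.1% in Shp2f/f MDSC, 73.5% in Shp2f/f TAM and 80.1% in Shp2f/fLysMcre TAM. That of Itgal was 62.4%, 7.89% and 6.11%, and that of Itgax 18.6% in Shp2f/f TAM and 13.7% in Shp2f/fLysMcre TAM. Leaving out a library moved the shares of Itgam, Itgal and Itgax over 33.3 to 35.6%, 57.6 to 60.5% and 6.19 to 6.79% in Shp2f/f MDSC, and over 32.5 to 42.8%, 50.1 to 61.6% and 5.89 to 7.11% in Shp2f/fLysMcre MDSC. With 2 libraries per group, small changes in MDSC were not detectable.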

Other observations

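Several marker lists of other cell types were low in every library. The 6 T cell markers summed to at most 14.7 CPM, the 4 NK cell markers to at most 3.29 CPM and the 5 B cell markers to at most 35.4 CPM. The 6 dendritic cell markers summed to 44.5 to 50.3 CPM in MDSC and to 4.28 to 7.15 CPM in TAM, where Itgax, often used as a dendritic cell marker, read 78.6 to 88.8 CPM. The 4 mast cell and basophil markers summed to 5.86 and 6.82 CPM in Shp2f/f MDSC and to 16.3 and 17.4 CPM in Shp2f/fLysMcre MDSC, and to at most 2.49 CPM in TAM. The 4 eosinophil markers reached 19.6 CPM at most, and the 6 erythroid markers reached 479 CPM in Shp2f/fLysMcre MDSC against at most 207 CPM in Shp2f/f MDSC. The sum of the 4 endothelial markers was higher in TAM, at 69.9 to 74.4 CPM in Shp2f/f and 112 to 121 CPM in Shp2f/fLysMcre libraries. Of these markers only Tie1 averaged lower in TAM than in MDSC, in both genotypes and with overlapping ranges.

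The ratio of Itgb2 to Itgb1 RPKM separated the cell types, at 3.58 to 4.07 in MDSC and 1.14 to 1.27 in TAM. The ratio of Itga4 to Itgb7 did not, at 0.155 to 0.275 in MDSC and 0.157 to 0.237 in TAM. The ratio of Itgav to Itgb3 was 4.605 and 4.37 in Shp2f/f MDSC, 1.89 and 1.605 in Shp2f/fLysMcre MDSC, 4.04 to 4.35 in Shp2f/f TAM and 4.88 to 5.31 in Shp2f/fLysMcre TAM.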
